A study of Arabidopsis thaliana with 6 samples.

Results

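The GASA genes of Arabidopsis thaliana encode small peptides named after GAST1, a gibberellin-stimulated transcript of tomato. The 8 genes described here are GASA1 (AT1G75750), GASA2 (AT4G09610), GASA3 (AT4G09600), GASA4 (AT5G15230), GASA5 (AT3G02885), GASA6 (AT1G74670), GASA10 (AT5G59845) and GASA14 (AT5G14920), chosen by gene ID from the 29613 IDs in the deposited counts. They are 8 of the 15 GASA genes looked up, and GASA7 (AT2G14900), GASA8, GASA9, GASA11, GASA12, GASA13 and GASA15 are given as the rest of the family. The choice was made with results of these data known, among them the difference of GASA5 between the genotypes, so the values of the 8 genes between genotypes and between replicates are a description and support nothing.

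The data are polyA RNA-seq of roots from wild type plants (Col-0) and from the 35S:NPC48 genotype, with 3 libraries each. In 35S:NPC48 the noncoding RNA NPC48 is driven by 35S, a viral promoter active in most plant cells. The ecotype is labelled for wild type only, and whether 1 or several transgenic lines were used cannot be read from the labels of the single libraries. Plants of both genotypes were untreated and grew on 500 µM phosphate to Boyes stage 1.0, under 16 h light and 8 h dark, at day and night temperatures of 24 and 21 °C and a humidity of 33%. Library totals ran from 20120659 to 23830604 counts, except 9479418 for 35S:NPC48 replicate 1. All 9 root genes used as a check were detected in every library. The summed level of 19 shoot and chloroplast genes ran from 77.9 to 243 CPM (read counts scaled to library size with TMM factors), and 8 or 9 of 11 seed storage genes were at 0 in each library. Replicate 2 of both genotypes stood apart: 10 genes of the phosphate starvation response summed to 6923 and 6335 CPM there and to between 177 and 223 CPM in the other libraries. NPC48 itself was not analysed here.

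GASA peptides carry a signal for secretion at their start and a cysteine-rich domain at their end. Gibberellins promote growth by binding GID1 receptors, which leads to the destruction of DELLA repressors, and several GASA genes respond to that signal. In Arabidopsis the peptides are linked to cell elongation, flowering, seed germination and the redox state of tissues.

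The cysteine-rich end is what defines the family, and its coding sequence is shown for the 5 members with enough reads to be tested. Each line runs from the first of the last 12 cysteine codons to the last codon before the stop. Cysteine codons are in capitals.
GASA1: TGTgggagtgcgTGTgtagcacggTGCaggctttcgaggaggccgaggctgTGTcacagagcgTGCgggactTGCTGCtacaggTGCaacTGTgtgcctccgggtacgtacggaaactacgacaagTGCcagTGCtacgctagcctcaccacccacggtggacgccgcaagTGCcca
GASA4: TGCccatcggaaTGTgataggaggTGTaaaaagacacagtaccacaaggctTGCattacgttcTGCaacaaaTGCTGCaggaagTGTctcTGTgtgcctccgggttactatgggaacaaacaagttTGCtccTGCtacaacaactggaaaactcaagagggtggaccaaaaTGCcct
GASA5: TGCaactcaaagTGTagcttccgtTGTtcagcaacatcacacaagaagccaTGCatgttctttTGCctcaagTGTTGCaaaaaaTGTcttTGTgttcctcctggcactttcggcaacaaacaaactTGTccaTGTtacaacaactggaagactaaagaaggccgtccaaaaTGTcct
GASA10: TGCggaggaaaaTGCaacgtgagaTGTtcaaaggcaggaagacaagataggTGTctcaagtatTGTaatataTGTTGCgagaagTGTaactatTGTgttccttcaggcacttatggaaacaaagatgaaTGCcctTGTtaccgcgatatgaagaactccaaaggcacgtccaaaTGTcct
GASA14: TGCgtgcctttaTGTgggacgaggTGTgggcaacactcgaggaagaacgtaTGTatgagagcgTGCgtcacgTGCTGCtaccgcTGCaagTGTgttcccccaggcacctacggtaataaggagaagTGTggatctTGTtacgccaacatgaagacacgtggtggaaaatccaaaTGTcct
These stretches lie in the last coding exon, at chr1:28441816-28441992 (minus strand) for GASA1, chr5:4945846-4946022 (plus strand) for GASA4, chr3:638326-638502 (minus strand) for GASA5, chr5:24111626-24111805 (plus strand) for GASA10 and chr5:4827579-4827758 (plus strand) for GASA14, in the RefSeq annotation of TAIR10.1. All 15 family genes hold at least 12 in-frame cysteine codons, and 12 of the 15 genes space the last 12 identically. The exceptions are GASA10, GASA14 and GASA15. GASA10 and GASA14 each have 1 additional codon, at different places, so that their stretch is 180 bases long against 177 in GASA1, GASA4 and GASA5. GASA14 also differs ahead of the domain: it has 275 codons in all, against 89 to 106 in the other 7 members.

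Sequence overlap bears on how far counts can be assigned to single members. GASA2 and GASA3, which are next to each other in number on chromosome 4, were the most alike pair of members, with 86.0% identity over the coding sequence and a longest shared run of 35 bases. Of the 5 tested members, GASA1 shared the longest run with any family transcript, 27 bases with GASA11. In GASA5 the longest shared run was 21 bases, with GASA6. No gene overlapped the 5 tested members in the annotation, while GASA6 overlapped AT1G74675 on the opposite strand by 206 bases.

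Of the 8 members, 5 passed the filter on low counts (GASA1, GASA4, GASA5, GASA10 and GASA14) and 3 did not. GASA2 had 0 counts in all 6 libraries. GASA3 had 1 count, in wild type replicate 3. GASA6, which promotes cell elongation and germination, had 6 counts in all, 2 of them in wild type replicate 3 and the rest in replicates 1 and 2 of 35S:NPC48, with 1 and 3. A level of 3 counts, the upper limit that a count of 0 allows, equals 0.126 to 0.320 CPM depending on the library, so in a library without a read of a gene a level up to that limit cannot be told from 0. GASA2 and GASA3 are known from seeds and siliques, and seed storage genes were also nearly undetected here. Of the 7 other family genes only GASA7 passed the filter. GASA8, GASA9, GASA12 and GASA13 had 0 counts in every library, and GASA11 and GASA15 had 3 counts each over all libraries.

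Levels of different genes were compared as CPM per kilobase of annotated exon. In wild type GASA1 stood highest at 825 ± 196 CPM per kb, followed by GASA4 at 196 ± 36.1 CPM per kb (SD, n = 3 each). GASA7 followed at 32.0 ± 6.34 CPM per kb. Libraries of these 3 neighbours in the order did not overlap. Below them GASA14 stood at 5.81 ± 1.44, GASA10 at 3.51 ± 1.04 and GASA5 at 1.99 ± 1.26 CPM per kb, and each of these overlapped the next. In 35S:NPC48 the order of the upper 3 was the same, with 1045 ± 437 CPM per kb for GASA1, 205 ± 44.7 for GASA4 and 34.8 ± 6.28 for GASA7. There GASA5 came before GASA10, at 7.33 ± 4.50 against 4.07 ± 1.93 CPM per kb, and GASA14 stood at 7.91 ± 0.685 CPM per kb. These lower 3 again overlapped their neighbours.

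**Figure D1:**
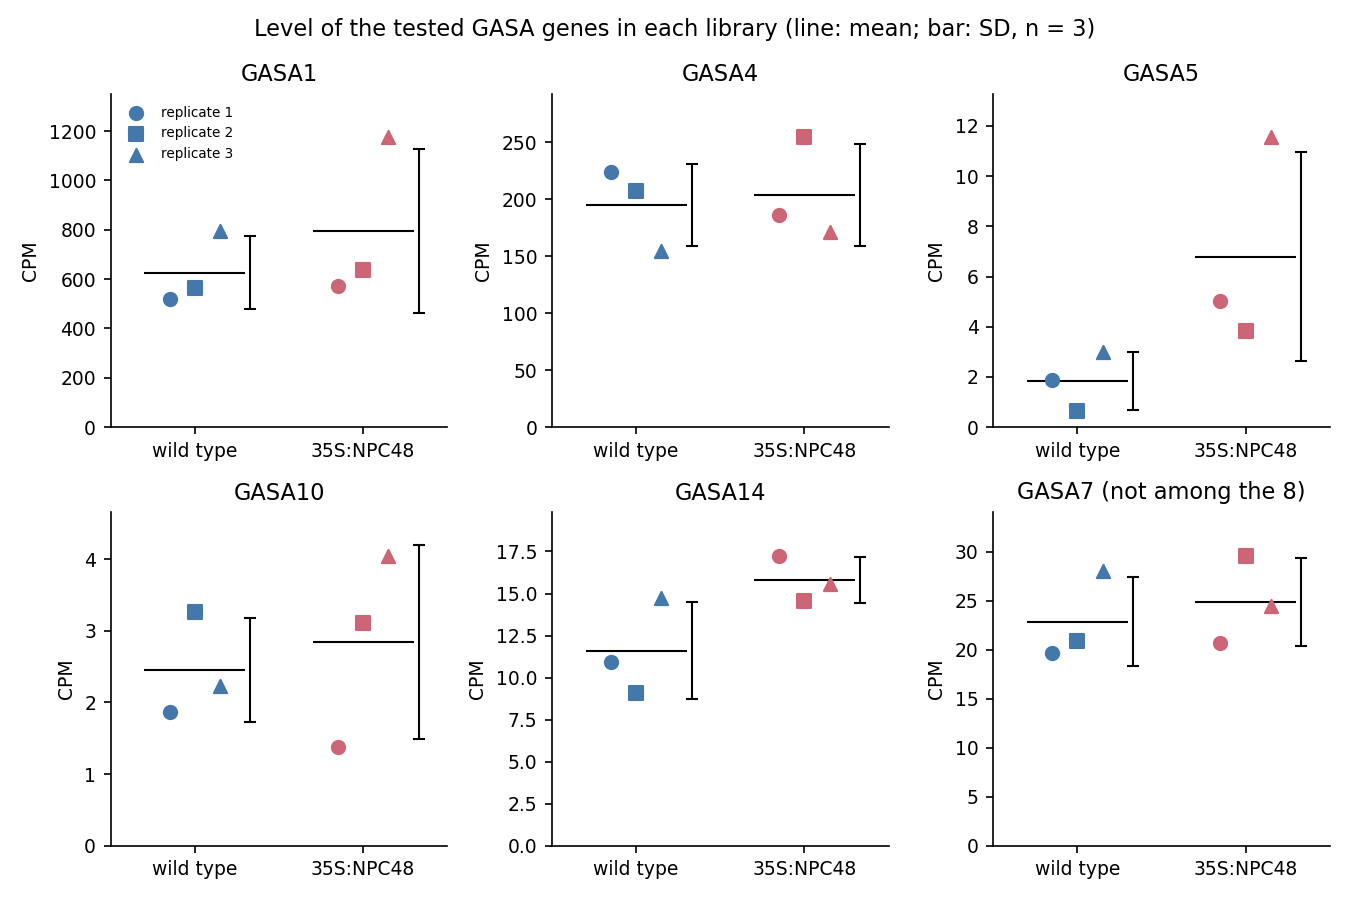
Level in CPM of the 5 tested members and of GASA7, one panel per gene with its own axis from 0. Points are single libraries with the replicate number shown by the symbol shape, lines are means and bars are SD (n = 3). The genotypes do not overlap for GASA5, where wild type reaches 2.99 CPM and 35S:NPC48 starts at 3.81 CPM, and they overlap in the other 5 panels.

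GASA5 was the member that differed most between the genotypes. It is known as a repressor of flowering and stem growth and for a part in heat tolerance. Wild type measured 1.87, 0.664 and 2.99 CPM (replicates 1, 2, 3), whereas 35S:NPC48 measured 5.01, 3.81 and 11.6 CPM. All 3 libraries of 35S:NPC48 were above all of wild type, and in each genotype replicate 2 was lowest and replicate 3 highest. The log2 fold change of 35S:NPC48 over wild type was 1.88 ± 0.60 (SE), and 1.92 ± 0.25 with the replicate number as a block. Without 35S:NPC48 replicate 3 it was 1.24. The raw counts behind these values were low: 42, 14, 71 for wild type, then 47, 76, 231 for 35S:NPC48. Within replicates 1, 2 and 3 the CPM ratio was 2.68 (95% counting interval 1.73 to 4.16), 5.75 (3.22 to 11.0) and 3.86 (2.95 to 5.12). These exact binomial intervals cover counting error only. The block and these ratios pair libraries by replicate number, and the check of that pairing does not tell replicates 1 and 3 apart.

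Among the other tested members, GASA1 and GASA4 were abundant and overlapped between genotypes. GASA1, whose transcript is raised by gibberellin and lowered by brassinosteroid, measured 519, 565 and 796 CPM for wild type (replicates 1, 2, 3), then 572, 635 and 1176 CPM for 35S:NPC48. Replicate 3 was highest in both genotypes. The log2 fold change was 0.34 ± 0.32, and it was -0.06 without 35S:NPC48 replicate 3. GASA4, a gene of meristems that acts in flowering and germination and limits reactive oxygen, measured 223, 207 and 154.5 CPM for wild type, then 186, 254.5 and 171 CPM for 35S:NPC48. Replicate 3 was lowest in both genotypes, opposite to GASA1. Its log2 fold change was 0.06 ± 0.22, and it was -0.14 without 35S:NPC48 replicate 2 and -0.08 without wild type replicate 3.

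GASA14 and GASA10 were low. GASA14, known for a part in leaf growth and in tolerance of salt and abscisic acid, measured 10.95, 9.10 and 14.7 CPM for wild type, then 17.3, 14.6 and 15.6 CPM for 35S:NPC48. The groups met at wild type replicate 3, which lay just above the lowest library of 35S:NPC48. The log2 fold change was 0.44 ± 0.21. The shoot and chloroplast genes summed to 103, 77.9 and 215 CPM for wild type, then 243, 130 and 127 CPM for 35S:NPC48, with 0 to 3 of the 19 genes at 0 in a library. Both sets of values were lowest in wild type replicates 2 and 1 and highest in 35S:NPC48 replicate 1. Their order differed elsewhere. Wild type replicate 3 had less GASA14 than 35S:NPC48 replicate 3 (14.7 against 15.6 CPM) and more of the shoot genes (215 against 127 CPM). The part of shoot material in the GASA14 values was not tested, and in roots as a whole more RNA per cell and more cells of a type cannot be told apart. GASA10 measured 1.87, 3.27 and 2.23 CPM for wild type, then 1.385, 3.11 and 4.05 CPM for 35S:NPC48, on 13 to 81 counts, and the genotypes overlapped. Its log2 fold change was 0.25 ± 0.42 and became -0.10 without 35S:NPC48 replicate 3. GASA7, outside the 8, measured 19.7, 20.9 and 28.05 CPM for wild type, then 20.7, 29.6 and 24.4 CPM for 35S:NPC48, with a log2 fold change of 0.13 ± 0.20.

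Over all 5 tested members the genotype difference was above 0, as it was for 10145 of all 19608 tested genes. For GASA4 and GASA10 it lay within 1 SE of 0. The median log2 fold change was 0.34 over the 5 members and 0.01 over all tested genes. Without a block, the quasi-likelihood test of edgeR called 0 of the 5 at an adjusted p under 0.05, where 0.0102% of all tested genes were called, and 1 of the 5 (GASA5) had an unadjusted p under 0.05, as did 695 of all 19608 tested genes. DESeq2 and limma-voom also called 0 of them. With the replicate block 1 of 5 was called, GASA5, where 1.21% of all tested genes were (0.841% higher and 0.367% lower in 35S:NPC48). Of these 237 calls, 122 were among the 166 tested genes of the chromosome 3 run that holds GASA5, described below. In that fit 3 of 5 (GASA1, GASA5 and GASA14) had an unadjusted p under 0.05, as did 2203 of the 19608. The genotypes did not overlap in 1 of 5, again GASA5, against 7.76% of all tested genes (3.94% with 35S:NPC48 higher and 3.82% lower). Because this contrast was known when the members were chosen, nothing is read from these counts.

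**Figure D2:**
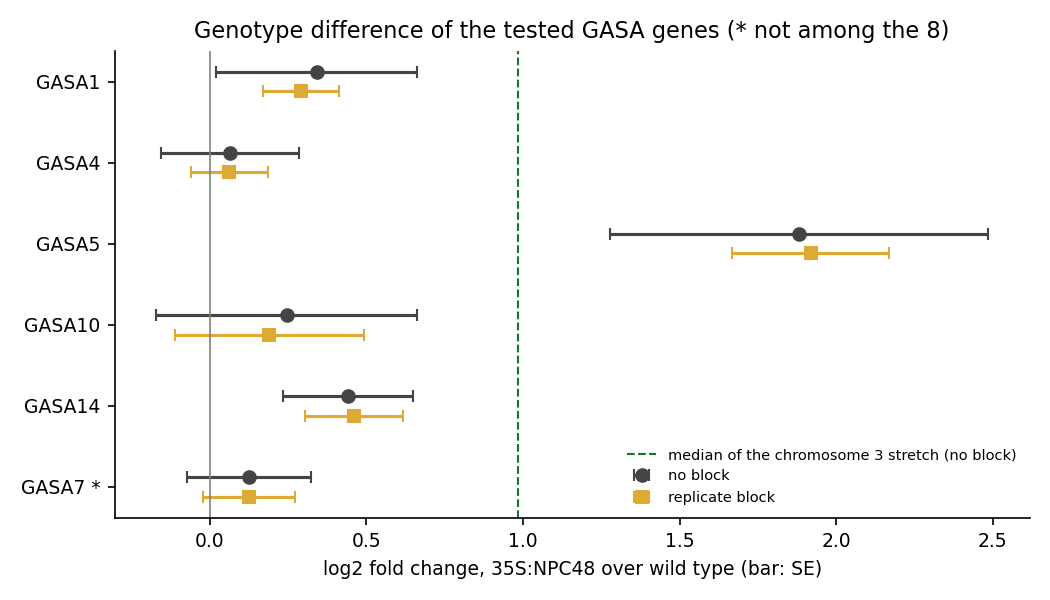
Log2 fold change of 35S:NPC48 over wild type with its SE for the 5 tested members and GASA7, without a block (circles) and with the replicate block (squares). GASA5 lies near 1.9 in both fits, beyond the dashed median of its chromosome 3 stretch at 0.98, and the other genes lie at or below 0.46.

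GASA5 lies in a run of neighbouring chromosome 3 genes, AT3G01280 to AT3G03010, whose transcripts stood at about 2 times the wild type level in 35S:NPC48. None of the other 14 GASA genes lies there. The ends of the run were set with this genotype difference known. Its median, its share of calls and its contrast with the genes outside it are therefore a description and support nothing. The run holds 166 tested genes, 153 of them before GASA5 and 12 after it in chromosome order, and 122 of the 166 were called with the block. Their median log2 fold change with the block was 0.98, with the middle part of the genes from 0.86 to 1.11 (quartiles). GASA5 lay 0.94 above that median with the block and 0.90 above it without, and ranked 3 and 4 from the top of the 166. Among the 39 tested genes of the run with a mean of 1 to 10 CPM, the range that holds GASA5, the median was 0.87 with the block, the values ran from 0.11 to 1.92, and GASA5 was highest. GASA5 was chosen with its genotype difference known, so its ranks and its distance from the median are a description and support nothing. Its own SE was 0.25 with the block and 0.60 without. Leaving out 35S:NPC48 replicate 3 lowered its log2 fold change without the block to 1.24. Within replicates 1, 2 and 3 the log2 CPM difference of GASA5 (prior count 2) was 1.37, 2.35 and 1.91, and the median of the run was 1.01, 1.00 and 0.93.

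The tested genes on either side of GASA5 had smaller differences. AT3G02880, annotated as a leucine-rich repeat protein kinase, measured 125 ± 6.21 CPM for wild type, then 232 ± 12.7 CPM for 35S:NPC48 (SD over 3 libraries). Its blocked log2 fold change was 0.90 ± 0.10 (edgeR adjusted p = 0.00464, and 0.125 without the block). AT3G02890, annotated as a RING/FYVE/PHD zinc finger protein, measured 13.2 ± 2.37 and 18.1 ± 2.75 CPM, and its blocked log2 fold change of 0.46 ± 0.12 did not pass (edgeR adjusted p = 0.159). Outside the run, the 21 tested genes before it had a median of -0.06 and the 30 after it one of 0.04, with the block.

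**Figure D3:**
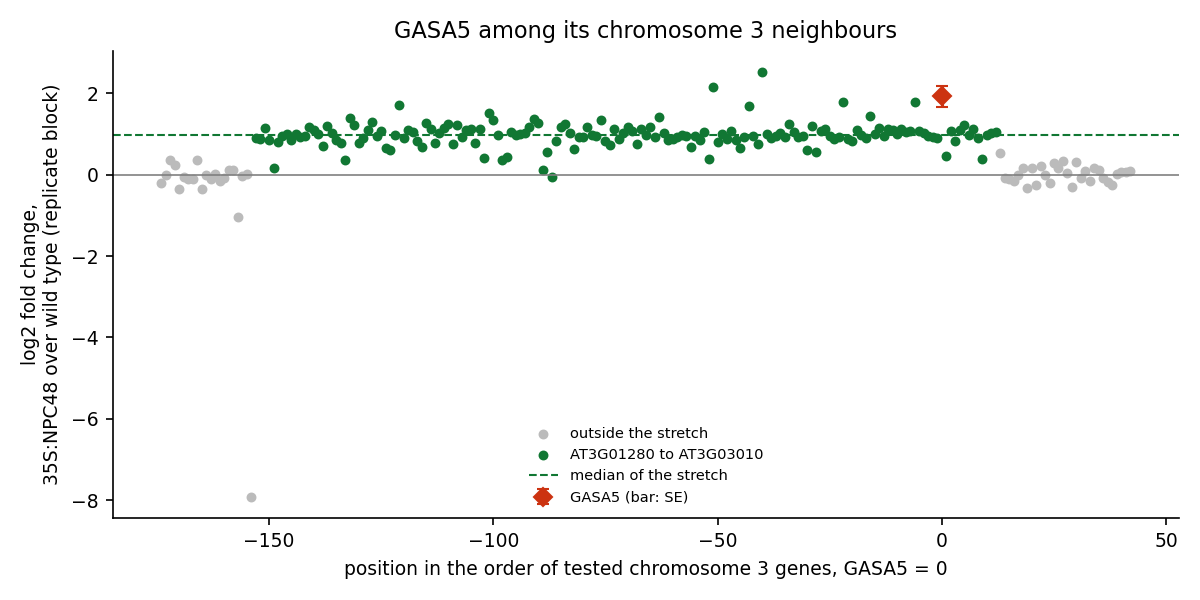
Blocked log2 fold change (35S:NPC48 over wild type) for tested chromosome 3 genes in their order along the chromosome, counted from GASA5. Green points are the 166 genes from AT3G01280 to AT3G03010 and grey points their neighbours. GASA5 (red, with SE) lies above most of the green points, which scatter around the dashed median of 0.98, and most grey points lie near 0, with AT3G01260 lowest at -7.91.

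Between replicate numbers the members moved in different directions. The 3 pairs of numbers were compared in a model with replicate and genotype, each number having 1 library of each genotype. From replicate 3 to replicate 2, GASA5 was lower by a log2 difference of -1.77 ± 0.30 and GASA1 by -0.70 ± 0.15, while GASA4 was higher by 0.50 ± 0.15. These 3 of 5 members passed the adjusted p of edgeR, against 21.7% of all tested genes (11.3% higher and 10.4% lower in replicate 2), and the other 2 did not, GASA14 having -0.40 ± 0.19 and GASA10 0.05 ± 0.35. Without wild type replicate 2, or without 35S:NPC48 replicate 2, 1 of 5 passed, namely GASA5, and the calls over all genes fell as well, to 1820 of 19767 and 1115 of 19809. From replicate 1 to replicate 2, 0 of 5 members passed against 19.9% of all tested genes (10.8% higher and 9.2% lower), with 2 of 5 at an unadjusted p under 0.05, and limma-voom also called 0 of them. Without wild type replicate 3 it was 2 of 5, where 7903 of 19875 tested genes were called. Without 35S:NPC48 replicate 3 it was 1 of 5, where 7967 of 19941 were. The differences were -0.83 ± 0.32 for GASA5, 0.90 ± 0.38 for GASA10, 0.14 ± 0.15 for GASA1, 0.16 ± 0.15 for GASA4 and -0.25 ± 0.19 for GASA14.

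From replicate 1 to replicate 3, GASA1 was higher by 0.83 ± 0.15, GASA5 by 0.94 ± 0.29 and GASA10 by 0.85 ± 0.38, GASA14 had 0.15 ± 0.19, and GASA4 had -0.34 ± 0.15. In this comparison edgeR called 0 of all 19608 tested genes, with 2659 at an unadjusted p under 0.05, of which 2 were members, and limma-voom called 0 as well. Leaving out wild type replicate 2, wild type replicate 3 or 35S:NPC48 replicate 3 gave 210, 1803 and 2145 called genes, of which 0, 2 and 2 were members. The CPM ratio of GASA1 to GASA4, not scaled by length, was 2.32, 2.73 and 5.155 for wild type (replicates 1, 2, 3), then 3.08, 2.495 and 6.88 for 35S:NPC48. Replicate 3 thus had the highest ratio in both genotypes, and replicate 2, in which phosphate starvation genes were high, did not differ from replicate 1 in a shared direction. GASA5 was lowest in replicate 2 of each genotype, where those 10 phosphate starvation genes summed highest, and their part in its level was not tested.

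**Figure D4:**
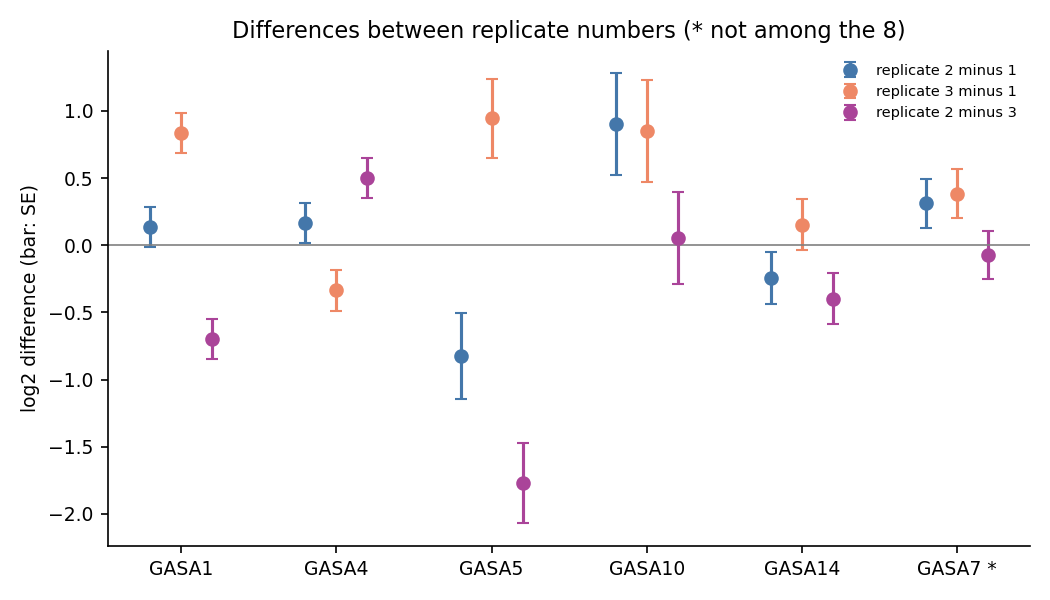
Log2 difference with its SE between each pair of replicate numbers for the 5 tested members and GASA7, from a model with replicate and genotype. GASA1 and GASA5 are highest in replicate 3, GASA4 is lowest there, and the largest difference is that of GASA5 between replicates 2 and 3 at -1.77.

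The profile over the 6 libraries was compared between genes as the root mean square difference of mean-centred log2 CPM. GASA1 and GASA14 were the closest pair of tested members at 0.38, and GASA4 and GASA5 the most distant at 1.31. GASA5 and GASA10 varied enough over the libraries (SD of log2 CPM 1.32 and 0.55, above the limit of 0.5) for a search among all tested genes. Closest to GASA5 were ATCG00720 at 0.30, AT5G66815 at 0.34 and AT2G26695 at 0.48. AT5G66815, which is not on chromosome 3, measured 1.603, 0.9955 and 2.53 CPM for wild type, then 4.37, 3.41 and 7.505 CPM for 35S:NPC48. These genes were picked for their likeness to GASA5 over the same 6 libraries, so their shared pattern is no result. ATCG00720 and AT2G26695 were lower still, reaching at most 1.601 and 0.901 CPM. In wild type replicate 2 they measured 0.0948 and 0.0474 CPM, below the level of 3 counts in that library (0.142 CPM). Closest to GASA10 were AT1G49940 at 0.11, AT3G00910 at 0.12 and AT5G61340 at 0.12.

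Promoter windows of 250 bases before the annotated start were searched on both strands for TAACAAA, the core of the gibberellin response element of cereal amylase genes, and for GNATATNC, the binding motif of the phosphate starvation regulator PHR1. TAACAAA was found in 16.1% of 27443 windows of protein-coding genes and GNATATNC in 5.46%. Neither was found in the windows of the 5 tested members, which says only that these letters are not in these windows.

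Genes that make, inactivate and perceive gibberellin were listed as context, 34 genes of which 25 were tested. Without a block, edgeR's test called 0 of the 25 for genotype, against 0.0102% of all tested genes. An unadjusted p under 0.05 was found for 2 of the 25 and for 695 of all 19608 tested genes. In limma-voom 0 of the 25 and 0 of all tested genes were called. DESeq2, run without this filter, gave a p-value to 30 of the listed genes and to 23816 genes in all. It called 1 of the lists, GA20OX2, and 153 over all genes. Of the synthesis genes 8 of 14 were tested, 2 of them above 0 and 6 below, with a median log2 fold change of -0.08. The gibberellin 20-oxidase gene GA20OX2, of the step that supplies precursors of active gibberellin, measured 1.47, 0.5215 and 0.758 CPM for wild type, then 3.84, 3.01 and 3.60 CPM for 35S:NPC48. Its libraries did not overlap, as in 7.76% of all tested genes (3.94% with 35S:NPC48 higher). The log2 fold change of GA20OX2 was 1.91 ± 0.41 (edgeR adjusted p = 0.306). With the replicate block it was 2.00 ± 0.31 (edgeR adjusted p = 0.0264), where 1.21% of all tested genes were called. Its adjusted p over the alternatives ran from 0.00268 to 0.999. With the run on chromosome 3 left out of the adjustment the blocked value was 0.0685, and without replicate 2 it was 0.138. The more abundant synthesis genes KO, of an early step, and GA3OX1, of the last step to active gibberellin, had log2 fold changes of -0.02 ± 0.20 and -0.10 ± 0.26 and did not pass.

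No gene of inactivation or perception was called by edgeR over all libraries, without the block or with it, against 0.0102% and 1.21% of all tested genes. Neither DESeq2 nor limma-voom called any of them. Of these 17 genes, 1 had an unadjusted p under 0.05 without the block and 2 with it. Over all 19608 tested genes 695 and 2203 did. Of the 2-oxidase genes, which inactivate gibberellin, 4 of 7 were tested, 2 above 0 and 2 below, with a median of 0.19. The more abundant were GA2OX6 and GA2OX1, with log2 fold changes of -0.07 ± 0.29 and -0.42 ± 0.51. All 13 perception and DELLA genes were tested, 5 above 0 and 8 below, with a median of -0.03. The DELLA gene RGA measured 110.9, 80.0 and 117.5 CPM for wild type, then 116.6, 79.0 and 105.8 CPM for 35S:NPC48, a log2 fold change of -0.03 ± 0.21, and SEC, an O-GlcNAc transferase that modifies DELLA proteins, had a log2 fold change of -0.04 ± 0.14. The DELLA gene RGL3, named after its values were seen, measured 5.70, 3.98 and 3.62 CPM for wild type, then 3.20, 1.96 and 1.85 CPM for 35S:NPC48. Its libraries did not overlap, and 3.82% of all tested genes did not overlap with 35S:NPC48 lower. The log2 fold change of RGL3, -0.95 ± 0.32, did not pass (edgeR adjusted p = 0.951, and 0.117 with the block). It passed only in the blocked fit without replicate 3 (0.0318), where 1938 of all genes were called. The 2-oxidase gene GA2OX4, too low to be tested, had 6, 3 and 7 counts for wild type, then 5, 7 and 8 counts for 35S:NPC48. These counts overlapped, and only the values scaled to CPM did not, 35S:NPC48 being higher. How many untested genes do the same was not computed, so nothing is read from it.

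**Figure D5:**
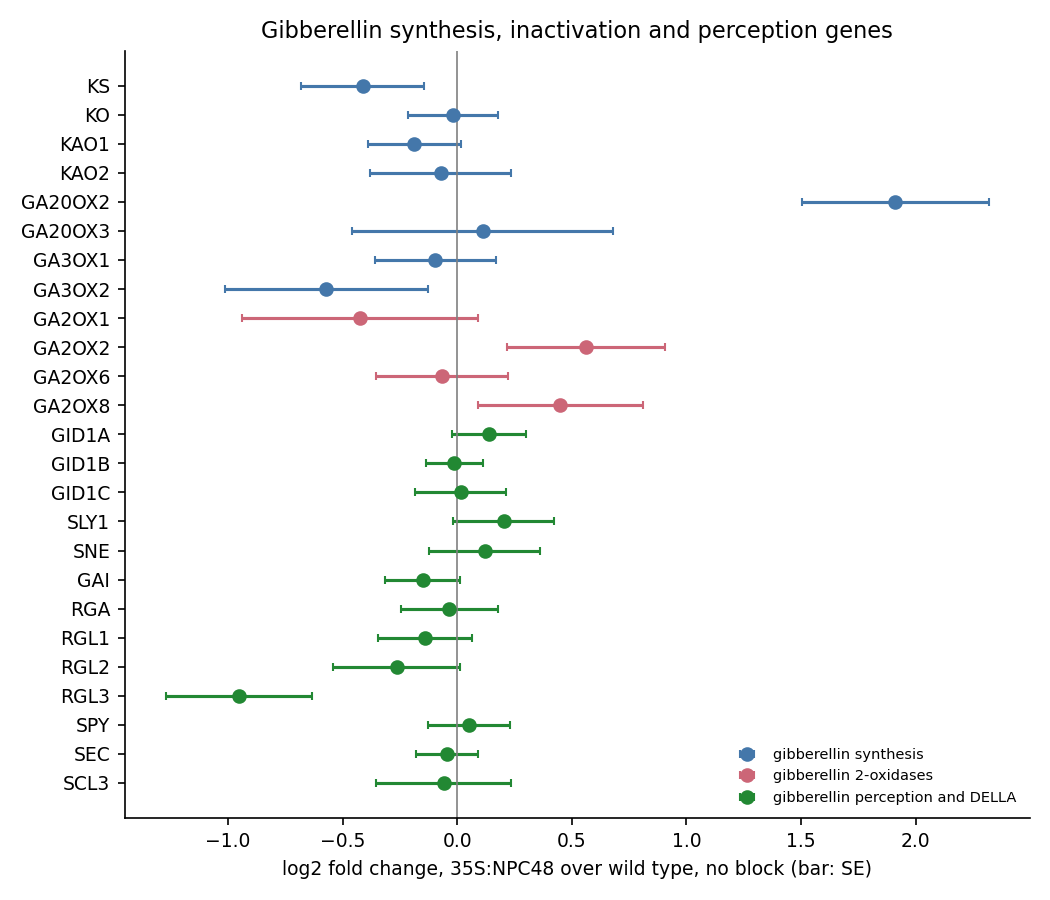
Log2 fold change of 35S:NPC48 over wild type with its SE, without a block, for the 25 tested genes of gibberellin synthesis, inactivation and perception. GA20OX2 lies at 1.91 and RGL3 at -0.95, and the others lie between -0.57 and 0.56.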

How the data were processed

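Each library came as raw counts of reads per gene, made and deposited by the authors. The submitters' processing notes list STAR 2.5.2b, Trimmomatic 0.36, Subread 1.6.5, featureCounts and the TAIR10 build. Strand setting, annotation release and treatment of multiply mapping reads: not given in the sources used here. Whether the counts keep a gene apart from an overlapping antisense partner is therefore not known.

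The software was edgeR 4.0.16, DESeq2 1.42.0 and limma 3.58.1 under R 4.3.3. The filter filterByExpr (minimum count 10, minimum total 15) kept 19608 of 29613 genes. CPM used TMM-scaled library sizes. Genotypes were compared by edgeR's quasi-likelihood test with genotype as the single term, Benjamini-Hochberg adjusted over all tested genes, with SE from the F statistic. Alternatives were a replicate block, other scaling, no filter, DESeq2, limma-voom and leaving out libraries. The members, gene lists and naming rules (all GASA genes, called or most abundant genes of each list, neighbours of GASA5) were chosen with earlier results of these data known. The fits were tested on simulated data with 200 genes changed by a log2 fold of 2. Without a block 90.2% of changed genes were recovered and 12.1% of the calls were false. With the replicate block the values were 96.4% and 8.78%. Both shares of false calls lie above the limit of 0.05 set for the adjusted p.

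Equal replicate numbers, taken from the labels, were checked for pairing: the deviations from group means correlated across genes at 0.53, 0.83 and 0.37 for replicates 1, 2 and 3. These values exceed 0.1, so the numbers were read as pairing libraries. Unequal numbers exceeded 0.1 as well, for wild type replicate 1 with 35S:NPC48 replicate 3 (0.39) and wild type replicate 3 with 35S:NPC48 replicate 1 (0.34). Passing 0.1 therefore does not support the pairing of replicates 1 and 3. Replicates 1 and 3 are thus not told apart by this check. No label ties the replicates to separate cultures, and the p-values therefore cover the spread of these libraries alone, possibly technical. No 2 replicates were copies, since their counts differed far beyond sampling noise (chi-square divided by its degrees of freedom, 16.3 to 96.1).

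Of the gene IDs, 28494 matched the RefSeq annotation of nuclear chromosomes of TAIR10.1, used for exon lengths, gene order and sequences. The deposited files give no coordinates. Sequences were compared with Biopython 1.88 by global alignment.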

Additional observations from a re-analysis of the deposited data

How the results depend on the processing

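The number of genes called between genotypes depended on the model. It was 2 without a block, 237 with the replicate block, 36 with the block and the chromosome 3 run left out of the adjustment, 153 with DESeq2 and 0 with limma-voom (698 at an unadjusted p under 0.05). Leaving out 1 library gave 0 to 2 without a block, and leaving out a replicate number gave 191, 118 and 1938 with it (without replicate 1, 2 and 3). The count of called GASA members was 0 without a block and 1 with it, 0 when 1 library was left out without a block, and 1 to 2 when a replicate number was left out with it. The second call was GASA14, without replicate 3, where 1938 of all genes were called. For the gibberellin lists it was 0 without a block, 1 with it, 1 with DESeq2, 0 when 1 library was left out and 0 to 3 when a replicate number was left out with the block. Over all 6 libraries the block changed no call among the members and listed genes other than those of GASA5 and GA20OX2. Without replicate 3 the blocked fit called GA20OX2, KS and RGL3 of the lists.

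The log2 fold change of GASA5 was above 0 under all 14 alternatives that gave it a value, from 1.24 to 2.42, and that of GASA14 under all 15, from 0.29 to 0.66. GASA1, GASA4, GASA10 and GASA7 changed sign under 1, 3, 2 and 2 of 15 alternatives and were called under 0 of them.

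When 1 library was left out, the number of genes called between replicates 2 and 1 ran from 1207 to 7967, between replicates 3 and 1 from 0 to 2145 and between replicates 2 and 3 from 1115 to 6604. Called members ran from 0 to 2, from 0 to 2 and from 1 to 4. A replicate number with a single library left was assumed to vary like the others. Other scaling, no filter and limma-voom left these counts within 1.5 times of those reported. GASA5 and GASA10, on 13 to 231 counts a library, are the members that depth limits most.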
